A study of Drosophila melanogaster with 18 samples.

Results

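LINE elements are retrotransposons without long terminal repeats, and 10 families of them are described here by name: Doc, Doc2-element, Doc3-element, F-element, jockey, Juan, BS, I-element, G-element and Cr1a. They were taken as the rows with a FlyBase identifier and exactly these names, and all 10 had a row in both the RNA and the ChIP tables, out of 119 Drosophila melanogaster transposons and 18910 features in all. The study used ovarian somatic cells (OSCs), a cultured fly line derived from ovarian follicle cells. RNA was sequenced 2 days after knockdown of EGFP (the control, a gene the fly does not have), piwi, mael or brm, and DNA bound by Brm, Polybromo and Osa, with input DNA, was sequenced from control and Piwi knockdown OSCs. Brm (Brahma) provides the ATPase motor of the SWI/SNF complexes, which move nucleosomes, Osa marks their BAP form and Polybromo their PBAP form. The labels gave 1 library per group, so every difference is between single libraries, no p-value is given, and intervals cover counting error only.

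A LINE is transcribed from a promoter inside its own 5' end into an RNA that encodes a nucleic acid binding protein and an enzyme with endonuclease and reverse transcriptase activity. That enzyme nicks the chromosome and copies the RNA directly into the nick, which leaves many copies with truncated 5' ends. In the fly ovary LINEs are best known as transposons of the germ line, whereas the gypsy superfamily of long terminal repeat retrotransposons is best known in the somatic follicle cells, where Piwi and its piRNAs silence it in the nucleus with the help of Maelstrom (Mael). Most of the families here belong to the jockey clade, the I-element belongs to the I clade and is the agent of I-R hybrid dysgenesis, and Cr1a belongs to the CR1 clade.

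Library totals recovered from the deposited values were 8983374 reads for the EGFP, 8965485 for the Piwi, 9498401 for the Mael and 4865534 for the Brm RNA library. Those of the ChIP and input libraries ran from 475226 to 2779826. The listed features held 99.999% of each RNA total but 29.7% to 38.7% of the ChIP and input totals, so both kinds of total are not alike. Each target was lowest where it was knocked down: piwi was at 81.5 RPKM (reads scaled to feature length and library size) in the control and 10.95 in its knockdown, mael at 14.5 and 4.20, and brm at 6.66 and 0.54. The Brm library also had piwi at 21.3 RPKM, and the LTR element copia, at 7.96% of the control library's reads, took 18.1% there. Among 17 listed markers of the ovarian soma with a row, 13 reached 1 RPKM in the control, the highest being tj (93.3 RPKM) and armi (90.8 RPKM). Sox100B and upd1 were at 0 there, ct at 0.11 RPKM and cas at 0.28 RPKM. Of 20 germline marker genes with a row, zpg, tej, otu and BicC had no read in any of the 4 libraries and vas was at most 0.30 RPKM, while pgc (71.8 RPKM in the control) and krimp (54.8 RPKM) were well above that. The summed level of those 20 genes was 154 RPKM in the control, 199.7 without Piwi, 124 without Mael and 86.3 without Brm.

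LINE RNA was scarce in these cells. The 10 families together held 0.0387% of the control library's reads, 0.0448% after Piwi knockdown, 0.0368% after Mael knockdown and 0.0337% after Brm knockdown. The highest in the control, per length, were Doc3-element at 19.4 RPKM, Doc at 17.1 RPKM and Doc2-element at 14.6 RPKM, 3 related families that ranked 19, 20 and 23 among the 119 transposons. Each of the 3 lay within counting error of its neighbour in this order. Juan (10.3 RPKM) and F-element (10.00 RPKM) followed, below Doc2-element (1.43-fold, counting interval 1.19 to 1.71) and within counting error of each other. Then came jockey at 4.06 RPKM, below F-element by 2.47-fold (1.92 to 3.17), with I-element at 3.09 RPKM and Cr1a at 2.94 RPKM, neighbours again within counting error. BS, at 0.71 RPKM from 33 reads, and G-element, at 0.08 RPKM from 3 reads, were the lowest. A family's row pools all its genomic copies, so the tables do not say which copies gave the reads. Fewer cells with a transcript and less of it per cell cannot be told apart in bulk RNA.

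**Figure D1:**
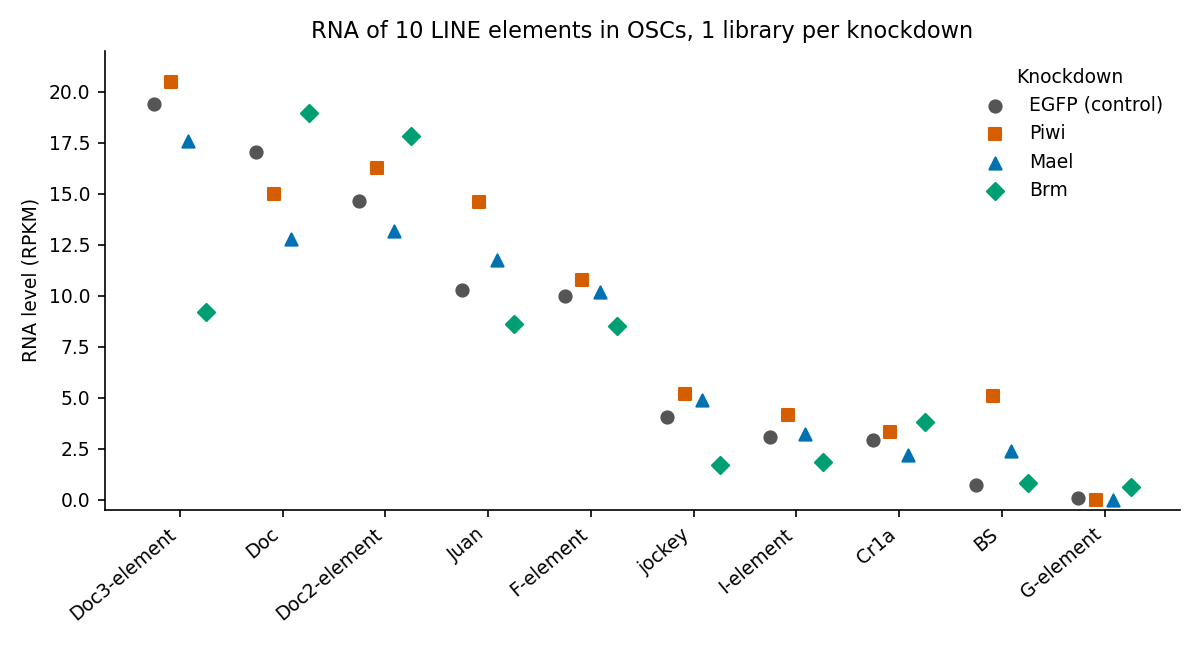
RNA level in RPKM (vertical axis) of the 10 LINE families, ordered by their control level, with 1 point for each knockdown library. The libraries lie close together for most families; BS stands at 5.08 RPKM in the Piwi library against 0.71 RPKM in the control, and Doc3-element at 9.19 RPKM in the Brm library against 19.4 RPKM.

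Loss of Piwi left the abundant LINEs within 2-fold of their control levels, while BS, a scarce family, had the largest increase of the 10. A feature was tested where its mean over the 2 libraries compared was at least 5 RPKM, and was called at a 2-fold difference of RPKM + 1. Of the 10 families 5 reached that floor (Doc, Doc2-element, Doc3-element, F-element and Juan), and of these 0 were called higher, against a background of 1.25% of 5378 features, and 0 lower, against 0.465%. Their median log2 ratio was 0.10, with a range of -0.18 to 0.47, beside -0.04 over all features tested. For comparison, 10 of 19 gypsy superfamily elements that reached the floor were called higher, with a median of 1.26. The floor admits an element low in the control more readily if it is higher in the knockdown, and the difference between both classes was not tested.

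BS, a jockey clade LINE, had 33 reads (0.71 RPKM) in the control, 234 reads (5.08 RPKM) without Piwi, 117 reads (2.40 RPKM) without Mael and 20 reads (0.80 RPKM) without Brm. The Piwi library was highest, the Mael library lay between it and the control, and the Brm library was at the control's level within counting error. Scaled by depth, the Piwi library held 7.11-fold the reads of the control (95% counting interval 4.23 to 12.7), and the Mael library 3.35-fold (1.91 to 6.19). Between both knockdowns, the Mael library held 0.47-fold the reads of the Piwi library (0.34 to 0.65). On the scale of RPKM + 1, which understates changes of weakly expressed features, the log2 ratios were 1.83 without Piwi and 0.99 without Mael, ranks 7 and 6 from the highest among the 119 transposons. The mean of BS over the control and Piwi libraries, 2.90 RPKM, was under the floor, so BS does not enter the count of calls. With a floor of 1 RPKM, which BS passed through its level in the Piwi library, it was called higher without Piwi, as 1 of 9 families, against a background of 1.86% of 7748 features. Input coverage of BS was 80.5 RPKM in the control and 85.0 RPKM without Piwi in the input of Brm and Polybromo, and 32.2 and 32.7 RPKM in that of Osa. Divided by the coverage of the median gene, it was 16.1 and 17.0 in the former, but 9.59 and 16.7 in the latter. The summed germline markers were also higher in the Piwi library (154 and 199.7 RPKM), mostly through pgc (71.8 and 114 RPKM). The markers krimp (54.8 and 57.8 RPKM), bam (0.71 and 2.00 RPKM) and gcl (1.39 and 2.60 RPKM) were higher there too. Lower there were del (5.21 and 4.26 RPKM) and cuff (3.44 and 1.89 RPKM), and further markers went in both directions. At 0 in all 4 libraries were zpg, tej, otu and BicC, and vas was at 0.30 RPKM in the control and at 0 without Piwi. In the Mael library, where BS was also higher, the markers summed to 124 RPKM. Their part in the BS ratios was not tested.

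Juan, another jockey clade family, had the largest ratio without Piwi among the 5 tested families. It had 391 reads (10.3 RPKM) in the control, 554 reads (14.6 RPKM) without Piwi, 472 reads (11.7 RPKM) without Mael and 178 reads (8.64 RPKM) without Brm. That is 1.42-fold without Piwi (interval 1.18 to 1.71), under the 2-fold rule, and 1.14-fold without Mael (0.94 to 1.39). I-element RNA was 4.15 RPKM without Piwi against 3.09 RPKM (1.34-fold, interval 0.99 to 1.84), and jockey RNA 5.20 against 4.06 RPKM (1.28-fold, 0.97 to 1.70). Both intervals include no difference. Doc2-element (16.3 RPKM without Piwi), Doc3-element (20.4 RPKM), F-element (10.8 RPKM) and Cr1a (3.32 RPKM) were at 1.05 to 1.13 times their control levels, and Doc (15.0 RPKM) was at 0.88 times. G-element had 0 reads in the Piwi and Mael libraries. For its length 3 reads, the limit that a count of 0 allows if reads are independent, are 0.08 RPKM in the Piwi library and 0.07 RPKM in the Mael library. Counted in fragments of 2 reads, the limit is higher. No fold is therefore given.

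Loss of Mael also left the tested LINEs within the rule. Of the 5 tested, 0 were called higher (background 0.414% of 5311 features) and 0 lower (0.433%), with a median log2 ratio of -0.14 beside -0.12 over all features tested. The largest decrease among them was Doc, from 724 reads (17.1 RPKM) to 574 reads (12.8 RPKM), 0.75-fold with an interval of 0.64 to 0.88. Doc2-element (13.2 RPKM), Doc3-element (17.57 RPKM) and F-element (10.2 RPKM) had intervals that include no difference. Among the families under the floor, jockey stood at 4.89 RPKM, I-element at 3.21 RPKM and Cr1a at 2.19 RPKM, also within counting error of the control.

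When the Mael library was set directly against the Piwi library, 6 families reached the floor, jockey now among them. Of these 0 were called higher (background 0.207% of 5318 features) and 0 lower (1.18%), and their log2 ratios ran from -0.29 to -0.07 with a median of -0.21, beside -0.09 over all features tested. All 6 ratios were thus a little below 0 as deposited. The counting intervals of Doc (0.85-fold, 0.72 to 1.004), F-element (0.95-fold, 0.78 to 1.14) and jockey (0.94-fold, 0.72 to 1.23) include no difference. Relative to the median feature, 4 ratios were below 0 (Doc -0.12, Doc2-element -0.19, Doc3-element -0.11, Juan -0.20) while jockey and F-element were at 0.02.

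**Figure D2:**
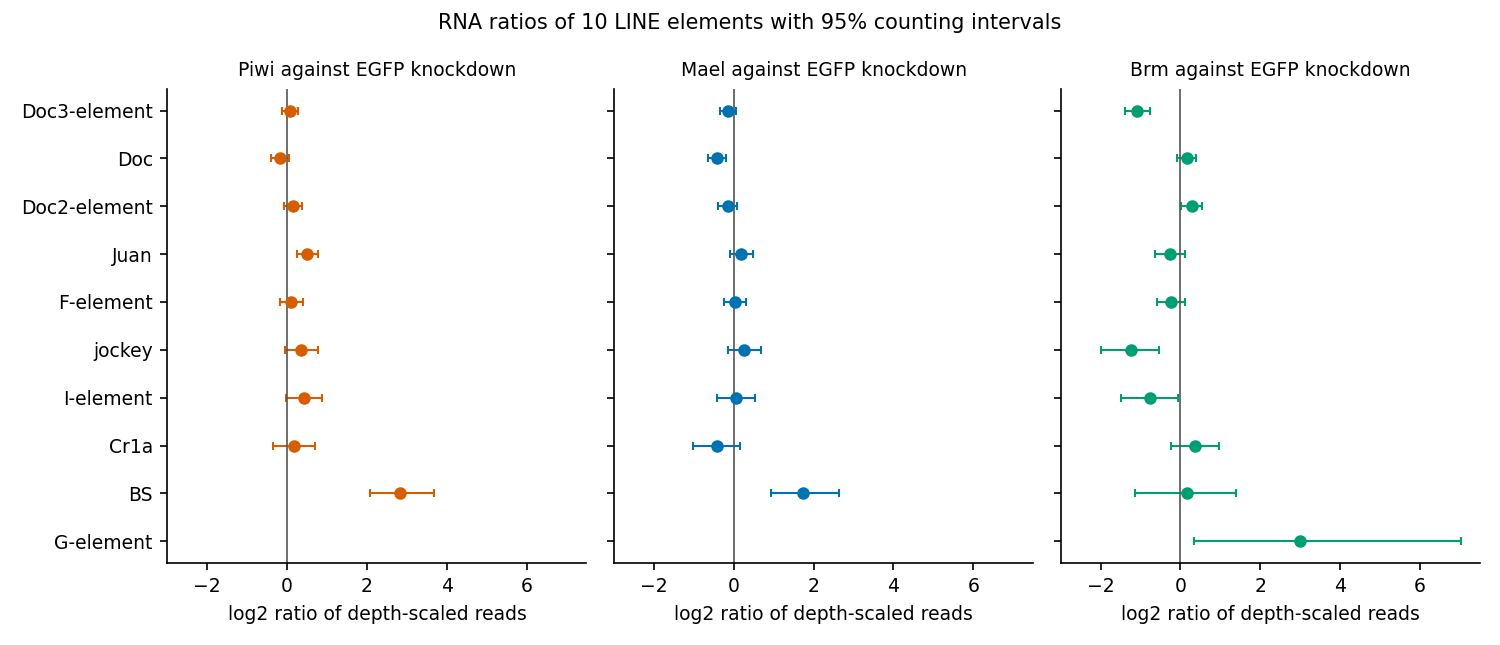
Log2 ratio of depth-scaled reads of each LINE family (horizontal axis) in the Piwi, Mael and Brm libraries, each against the same EGFP library, with 95% counting intervals. G-element is drawn only where both libraries had reads. BS lies at 2.83 in the Piwi panel and 1.75 in the Mael panel, and Doc3-element at -1.08 in the Brm panel.

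In the Brm library the LINEs differed from each other, the related Doc families included. Doc3-element fell from 826 reads (19.4 RPKM) in the control to 212 reads (9.19 RPKM), while it had 869 reads (20.4 RPKM) without Piwi and 791 reads (17.57 RPKM) without Mael. Its Brm library was thus the lowest of the 4, at 0.47-fold of the control (interval 0.38 to 0.59), and it was the 1 family called lower of 5 tested, against a background of 10.8% of 5078 features. None of the 5 was called higher (background 1.63%). Doc was at 17.1 RPKM in the control and 19.0 RPKM without Brm (1.11-fold, 0.94 to 1.32), and Doc2-element at 14.6 and 17.8 RPKM (1.22-fold, 1.02 to 1.45), neither of them past the rule.

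Over all features tested the median log2 ratio in the Brm comparison was -0.34, so ratios are also given relative to it. Doc3-element was then at -0.66 and no longer past 2-fold (0 members higher, background 3.54%; 0 lower, background 4.14%), and Doc and Doc2-element were at 0.49 and 0.61. Doc3-element also missed the rule, at -0.88, when RPKM were rescaled to the reads of genes without transposons. Juan (8.64 RPKM, 178 reads) and F-element (8.51 RPKM, 195 reads) were at -0.23 and -0.21 as deposited and at 0.11 and 0.13 relative to the median feature, so their direction depends on this scaling. The median of the 5 tested was -0.21, or 0.13 relative to the median feature.

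Under the floor, jockey had 42 reads (1.72 RPKM) without Brm against 183 reads (4.06 RPKM) in the control, 0.42-fold with an interval of 0.25 to 0.69. I-element had 48 reads (1.84 RPKM) against 149 reads (3.09 RPKM), 0.59-fold (0.36 to 0.95). Cr1a, at 3.82 against 2.94 RPKM, was within counting error of the control. G-element had 13 reads (0.61 RPKM) without Brm against 3 reads in the control, a ratio of 8.0 with a counting interval of 1.27 to 132. BS was at 0.80 RPKM, with piwi at 21.3 RPKM in the same library. Of the SWI/SNF subunit genes themselves, 5 of 9 tested were lower by 2-fold in the Brm library as deposited (background 10.8%), and 1 of 9 relative to the median feature (background 4.14%), brm itself being under the floor. Markers of the ovarian soma summed to 191 RPKM there against 348 RPKM in the control, with piwi (21.3 and 81.5 RPKM) among them. Of 10 such markers tested, 4 were lower by 2-fold as deposited (background 10.8%), and 1 relative to the median feature (background 4.14%). The part of these differences in the LINE ratios was not tested.

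The genes whose 3 knockdown ratios lay nearest to those of the 3 most abundant LINEs were 9 genes, none of them a transposon. Nearest to Doc3-element, by Euclidean distance over the 3 log2 ratios, were Dcp-1 (distance 0.04), mav (0.06) and Poc1 (0.06). Doc was nearest to TTLL12 (0.03), Dhpr (0.05) and RpL15 (0.06), and Doc2-element to CG33722 (0.05), mRpL9 (0.06) and VhaM9.7-b (0.06). Such neighbours were plentiful: 81 to 102 of 5218 features lay within a distance of 0.2 of each family.

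The order of RNA levels was not the order in which the cells carried DNA of these families. Input coverage in the control input of Brm and Polybromo, divided by the median of 7838 autosomal genes with 1 transcript (5.01 RPKM), gave each family's genomic dose, which adds up full-length and truncated copies. F-element had the highest dose, 174 times the median gene, followed by Doc (127), Cr1a (105), Juan (62.3), jockey (50.7) and I-element (47.6). Doc3-element (35.2), G-element (33.7), Doc2-element (23.7) and BS (16.1) had the lowest. The control input of Osa gave doses of 0.45 (Cr1a) to 1.08 (I-element) times these, so the order rests partly on the input: Cr1a, at 47.2, moved from rank 3 to rank 6, while F-element (145) and Doc (112) stayed highest and BS (9.59) lowest. Control RNA per unit of dose was highest for Doc2-element (0.62 RPKM) and Doc3-element (0.55 RPKM), against 0.13 RPKM for Doc, 0.06 RPKM for F-element, 0.04 RPKM for BS and 0.03 RPKM for Cr1a. With the Osa input, Doc3-element (1.05 RPKM) and Doc2-element (0.87 RPKM) were again highest, in the reverse order, and Cr1a was at 0.06 RPKM. Without Piwi, by the input of Brm and Polybromo, BS was at 0.32 RPKM per unit of dose and Juan at 0.23 RPKM. Across the 10 families, which share both libraries, log2 dose and log2 RNA level were related by Pearson's r of 0.37 and Spearman's rho of 0.27, given as a description.

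**Figure D3:**
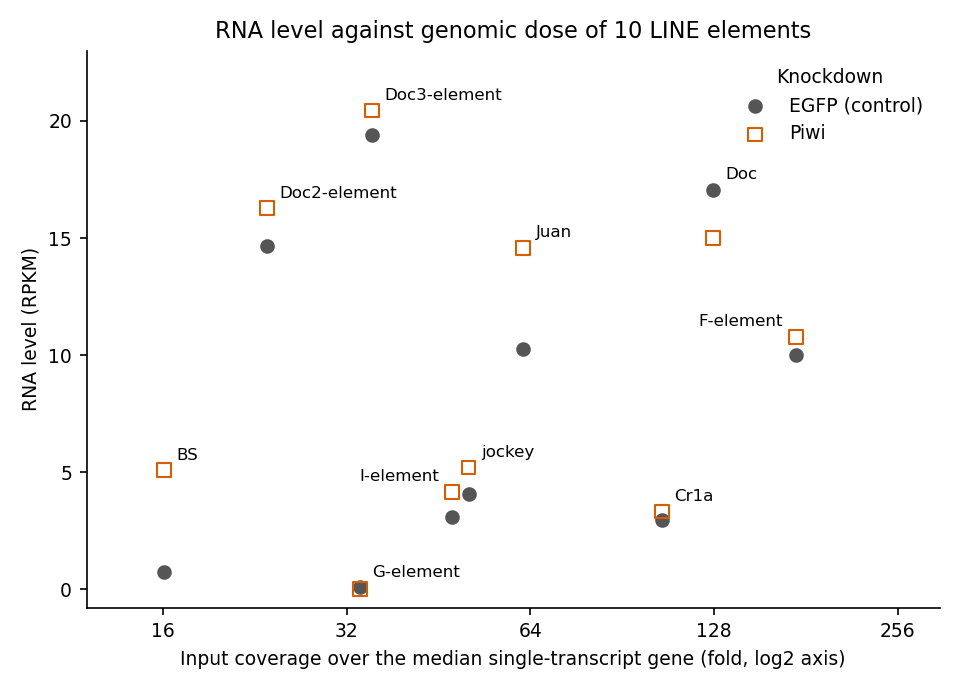
RNA level in RPKM (vertical axis) against genomic dose (horizontal log2 axis, control input coverage of Brm and Polybromo over that of the median single-transcript gene) of the 10 LINE families in the EGFP and Piwi libraries. Doc3-element and Doc2-element combine low doses (35.2 and 23.7) with high RNA, Cr1a a high dose (105) with 2.94 RPKM, and BS has the lowest dose (16.1).

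The dose also served to check the inputs. Between conditions, in the inputs of Brm and Polybromo, the doses with and without Piwi differed by 0.90 to 1.06 times over the 10 families. In the Osa inputs the dose without Piwi was 1.37 (Juan) to 2.75 (F-element) times that of the control. The Piwi knockdown input of Osa was also the shallowest library, with 475226 reads and a median gene at 1.97 RPKM. The Osa values therefore rest on inputs that differ between conditions by up to that much.

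ChIP over input, as deposited, was below 1 for most LINEs, and Juan was the family that stood out for Osa. For Juan the Osa ChIP had 431 RPKM (2839 reads) in control cells against 190 RPKM (745 reads) in the input, a ratio of 2.27, and 375 RPKM (1962 reads) against 153 RPKM (307 reads) without Piwi, a ratio of 2.46. The other 9 families had Osa ratios of 0.62 (G-element) to 1.06 (I-element) in control cells and of 0.62 (G-element) to 1.06 (Cr1a) without Piwi. Juan thus lay above all others in both pairs of libraries.

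For each protein, log2 enrichment was set relative to the median of the features kept. Juan's Osa enrichment was then 2.38 (interval 2.26 to 2.50) in control cells and 2.04 (1.87 to 2.22) without Piwi, percentile 97.8 of the kept features both times. Among transposons it ranked 6 of 103 and 7 of 108. It exceeded the next LINE by 1.09 (I-element) in control cells and by 1.21 (Cr1a) without Piwi. With the input of Brm and Polybromo in place of the Osa input, Juan still led the other LINEs, by 0.84 and 0.36.

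The other LINEs had Osa enrichments of 0.54 (G-element) to 1.30 (I-element) in control cells. The median of all 10 was 1.09, beside 1.17 over 110 transposons. These were the transposons whose Osa input, averaged over control and Piwi knockdown, reached the median of all features. Without Piwi the median of the 10 was 0.52, beside 0.58 over the same transposons. That level above 0 is relative to the median feature: without centring the LINE medians were -0.11 and -0.24, and with the other input they were -0.65 and -0.64.

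For Brm and Polybromo the families lay closer together than for Osa, and Juan was again highest, with a Brm ChIP of 321 RPKM against 312 RPKM of input in control cells (ratio 1.03) and 307 against 301 RPKM without Piwi (1.02). Its Polybromo ChIP was 313 RPKM in control cells (1.003) and 311 RPKM without Piwi (1.03). The Brm ratios of the other 9 families ran from 0.60 (Doc3-element) to 0.79 (F-element) in control cells.

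Relative to the median feature, Juan was at 0.25 for Brm and 0.16 for Polybromo in control cells, and at 0.35 and 0.33 without Piwi. Its lead for both in control cells reversed when the Osa input was used instead, to 0.35 and 0.74 below the highest other family. The median of the 10 families was -0.20 for Brm and -0.10 for Polybromo in control cells, beside -0.26 and -0.08 over all 116 kept transposons, and -0.11 and -0.24 without Piwi. These small medians also turned positive with the Osa input. Doc3-element, the family called lower without Brm, had the lowest Brm enrichment of the 10 in control cells, -0.52 (interval -0.63 to -0.41), from 105 RPKM of ChIP and 177 RPKM of input. With the Osa input it ranked 7 from the lowest, at 1.58.

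**Figure D4:**
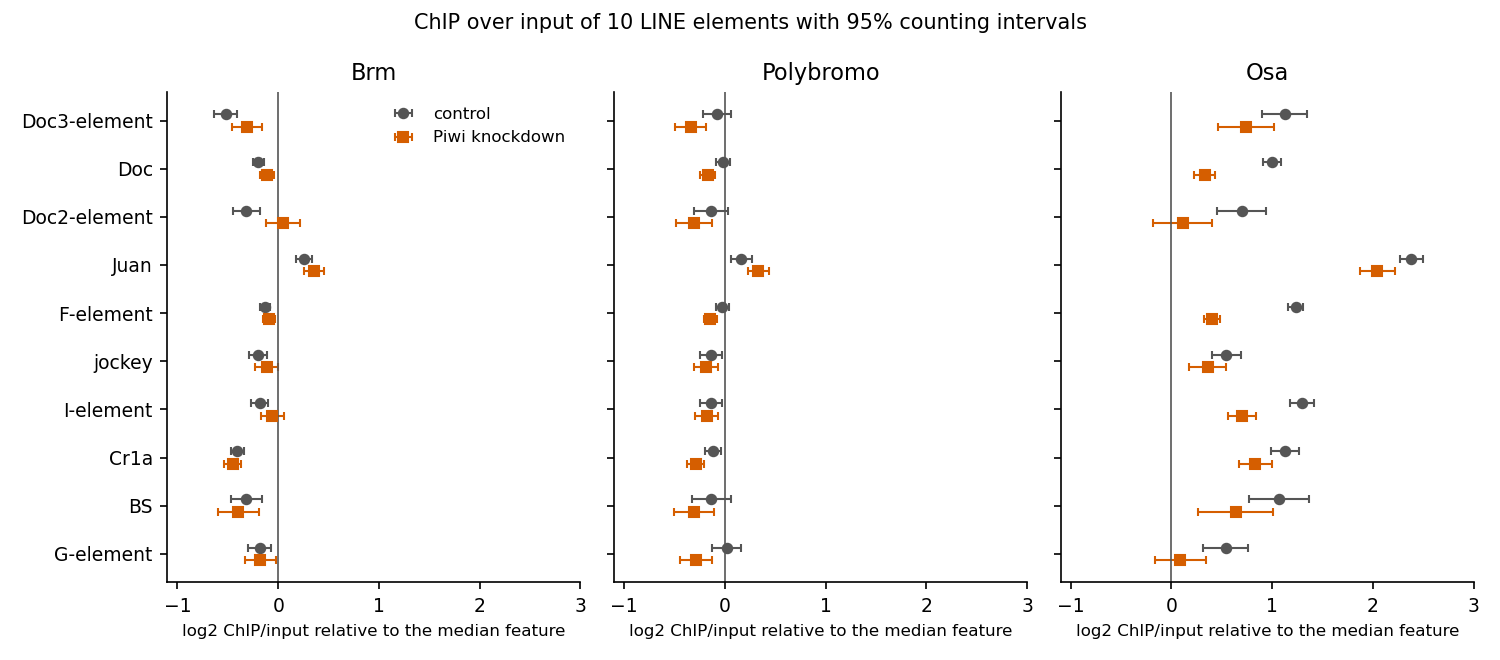
Log2 ChIP over input relative to the median feature (horizontal axis) of the 10 LINE families for Brm, Polybromo and Osa, in control and Piwi knockdown cells, with 95% counting intervals. Juan lies at 2.38 and 2.04 for Osa, apart from the other families, and within 0.5 of 0 for Brm and Polybromo.

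Loss of Piwi moved none of the 10 families past 2-fold in its ChIP over input. For Brm 0 were higher (background 7.04% of 9455 features) and 0 lower (8.8%). The median change was 0.08, with a range of -0.09 (BS) to 0.36 (Doc2-element, interval 0.14 to 0.57), beside 0.05 over all kept transposons. For Polybromo 0 were higher (9.54%) and 0 lower (9.91%). The median change was -0.20, with Juan alone above 0 (0.13, interval -0.01 to 0.28) and G-element lowest (-0.34), beside -0.16 over all kept transposons. For Osa 0 were higher (29.1%) and 0 lower (26.7%). Most background features were genes, with far lower input coverage than these families. In the Piwi knockdown input of Osa the median gene was at 1.97 RPKM and BS, the lowest of the 10, at 32.7 RPKM. Features with few reads pass 2-fold more readily by counting error, so these shares do not show that the LINEs were unusually stable.

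All 10 Osa changes were below 0 relative to the median feature, from -0.76 (F-element) to -0.11 (jockey), with a median of -0.37 beside -0.46 over all kept transposons. F-element also had the largest difference between the Osa inputs, 487 RPKM in control cells and 786 RPKM without Piwi, while its Osa ChIP went from 496 to 616 RPKM. Compared ChIP against ChIP, without inputs, the median change for Osa was 0.06, and without centring it was 0.01, so its direction depends on the scaling.

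BS, whose RNA was 7.11-fold higher without Piwi, had changes of -0.09 for Brm (interval -0.34 to 0.17), -0.21 for Polybromo (-0.49 to 0.07) and -0.36 for Osa (-0.84 to 0.12). Its Brm ChIP was 55.3 RPKM in control cells and 50.7 RPKM without Piwi, its Polybromo ChIP 65.4 and 55.8 RPKM, and its Osa ChIP 29.0 and 30.0 RPKM. No change in binding at BS was detectable at this depth beyond counting error.

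**Figure D5:**
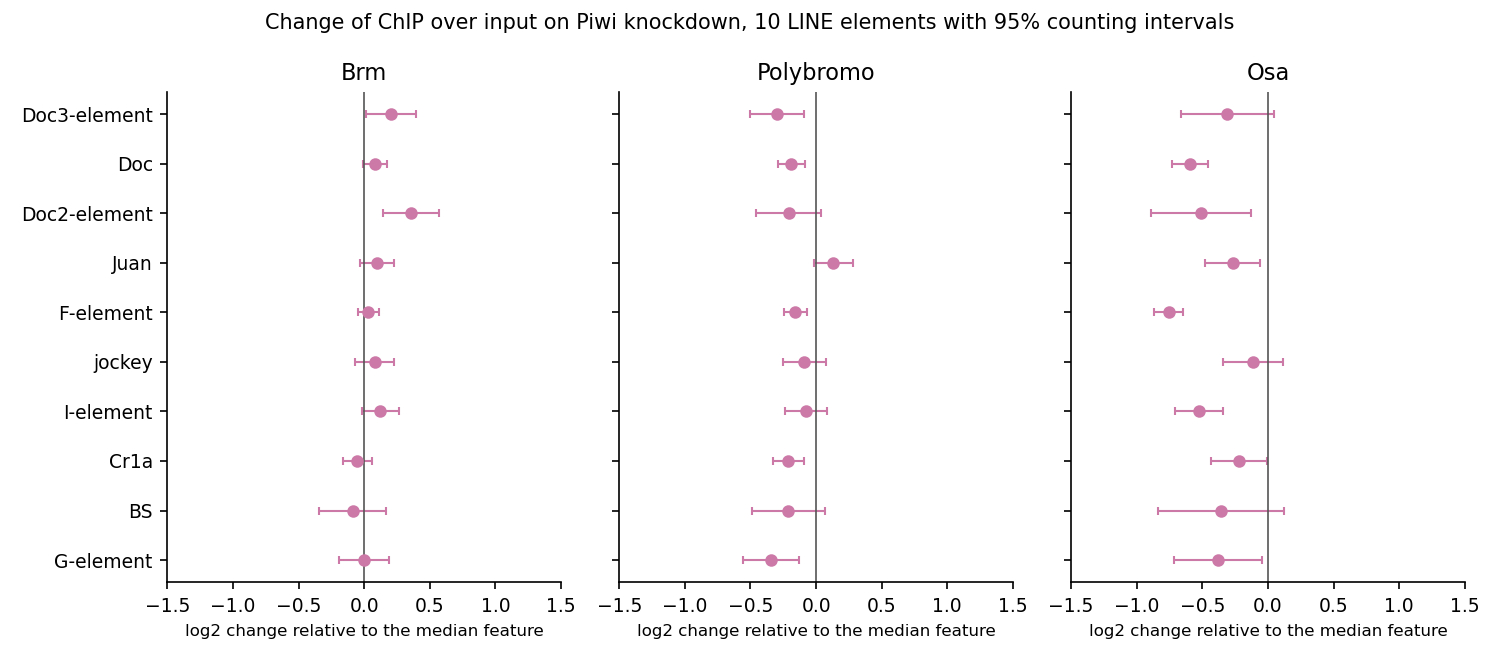
Change of log2 ChIP over input on Piwi knockdown relative to the median feature (horizontal axis) of the 10 LINE families for Brm, Polybromo and Osa, with 95% counting intervals. All points lie within 1 of 0, that is within 2-fold; those for Osa run from -0.76 (F-element) to -0.11 (jockey).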

How the data were processed

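The deposited tables hold RPKM values per transcript or transposon family, computed by the authors; Bowtie2 2.2.4 and the dm6 build are named per the submitters' processing notes. How reads were counted, and how those matching several copies were treated, is not given in the sources used here. Of the RNA values, 4 columns matched no sample and were not used, nor were 4 ovary libraries. Library totals and feature lengths were recovered as the numbers that turn RPKM into whole reads (within 0.01). Transcript accessions were matched to gene symbols in the RefSeq table of the Release 6 assembly (32988 matched, 2339 did not and stayed single features), RPKM were summed per gene, and 54 rows of transposons of other species were left out.

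RNA was compared as log2(RPKM + 1), with a floor of a mean of 5 RPKM and a 2-fold rule. RNA ratios carry 95% intervals by the Clopper-Pearson method on fragments (2 reads each), and ChIP values carry normal intervals on log read ratios. ChIP enrichment was log2 of ChIP over input, with the 5th percentile of input values above 0 added to both, relative to the median feature whose input reached the median. The text names all members, the targeted genes, nearest features of the 3 most abundant members, and other LINEs past 2-fold or among the 4 highest. Some further LINEs were named after their values were seen. The members and lists were chosen with earlier results of these data known. The rules were also run on simulated reads that carried counting error only, with RNA changes set only in features above the floor. Those runs do not cover scarce families such as BS, or inputs that differ between conditions. Python 3.11.15, numpy 2.4.6, pandas 2.3.3, scipy 1.17.1 and matplotlib 3.10.9 were used. No sequence of the elements was used here.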

Additional observations from a re-analysis of the deposited data

How the results depend on the processing

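Counting error here means the median half-width of the intervals of single families, which is not the error of a median over several families. By that measure the RNA medians of the Piwi, Mael and direct Mael to Piwi comparisons moved by less than counting error under each alternative run. The Mael median still changed sign, from -0.14 to 0.025, with a floor of 1 RPKM. In all, 130 of 168 recomputed medians and counts moved by less than counting error or 1.5 times. Many of these were counts of calls that were 0 and stayed 0, which says little about stability. Most of the recomputed ChIP enrichment medians moved by more than counting error. Without Piwi, 1 family (BS) was called higher with a floor of 1 RPKM (background 1.86% of 7748 features), which it passed through its level in the Piwi library. It was also called with no floor, for which no background was counted. In the Brm comparison the median was 0.13 relative to the median feature, also with features that have a symbol only (0.13, an alternative chosen after seeing the data), and the 1 lower call became 0 with a pseudocount of 5, relative to the median feature, after rescaling to genes and with named features only. Not centred, the enrichment medians were -0.41 and -0.44 (Brm, control and Piwi knockdown), -0.25 and -0.52 (Polybromo), and -0.11 and -0.24 (Osa). With the other input they were 1.43 and 0.996 (Brm), 1.54 and 0.72 (Polybromo), and -0.65 and -0.64 (Osa). With every feature of input above 0 they were -0.37 and -0.34 (Brm), -0.26 and -0.47 (Polybromo), and 0.79 and 0.32 (Osa). Relative to the median transposon, also chosen after seeing the data, they were 0.067 and 0.088 (Brm), -0.055 (Polybromo, Piwi knockdown), and -0.043 and -0.042 (Osa). With the other inputs the changes without Piwi were -0.44 (Brm), -0.85 (Polybromo, 2 families lower) and 0.13 (Osa). The Osa change was 0.056 without inputs and 0.012 not centred, and 2 families were lower at 1.5-fold. No background over all features was counted for the lower calls of Polybromo with the other inputs or of Osa at 1.5-fold. With the main settings 9.91% (Polybromo) and 26.7% (Osa) of all features were lower at 2-fold. The cause of these shifts was not tested. No sample had a replicate, so leaving one out was not possible, and depth limits BS (33 control reads) and G-element (3 reads).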

Other observations

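Of the 21 other LINE families with a row, 0 reached a mean of 5 RPKM in any comparison. Their control levels ran from 0 to 1.36 RPKM, with Rt1b highest. Of these, the R1A1-element, a family that inserts into ribosomal RNA genes, passed 2-fold on the scale of RPKM + 1, in the Brm library. Its mean over that library and the control was 3.43 RPKM, under the floor. No background over all features was counted for the Brm comparison at levels that low. The R1A1-element had 44 reads (0.91 RPKM) in the control, 34 (0.71 RPKM) without Piwi, 22 (0.43 RPKM) without Mael and 155 (5.95 RPKM) without Brm. The Brm library was the highest, 6.50-fold above the control (95% counting interval 4.01 to 11.0), and on the scale of RPKM + 1 the log2 ratio of 1.86 ranked 1 of 119 transposons. The R2-element, another family of the ribosomal RNA genes, named after its values were seen, had 12 reads in the control and 21 in the shallower Brm library, 3.23-fold (1.08 to 10.7).

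The other most abundant of these families were G5A (1.33 RPKM in the control and 1.73, 1.15 and 2.68 RPKM in the Piwi, Mael and Brm libraries), Rt1b (1.36, 1.25, 1.75 and 1.55 RPKM) and Ivk (1.30, 1.11, 1.97 and 0.46 RPKM). Rt1a, named after its values were seen, had 28 reads in the control, 82 without Piwi (2.93-fold, interval 1.57 to 5.83) and 74 without Mael (2.50-fold, 1.32 to 5.01). Its Mael and Piwi libraries were within counting error of each other, and it had 10 reads (0.40 RPKM) without Brm against 0.61 RPKM in the control. Other scarce families, also named after their values were seen, had intervals that exclude no difference in both directions. Without Piwi jockey2 was at 3.34-fold (1.11 to 12.6), but G5 at 0.21-fold (0.05 to 0.67) and X-element at 0.24-fold (0.03 to 0.99). Without Brm G3 was at 11.1-fold (1.97 to 174) and Ivk at 0.35-fold (0.12 to 0.85). HeT-A, the telomeric LINE with a row, stood at 5.12 RPKM in the control and at 3.23, 2.42 and 2.40 RPKM in the Piwi, Mael and Brm libraries. With the input of Brm and Polybromo, its Brm enrichments were 0.92 in control cells and 1.32 without Piwi. These were ranks 2 of 116 and 3 of 113 among transposons. Its dose differed strongly between inputs, at 8.81 by that input and 21.7 by the Osa input in control cells. Without Piwi these doses were 8.64 and 39.8. A higher input lowers ChIP over input, so both ranks depend on the input used. Its rank with the Osa input was not tested.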
